A study of Mus musculus with 6 samples.

Results

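Day 12 c-KIT+ cells were compared with day 8 CDH5+ cells, both sorted from fibroblast cultures being reprogrammed to blood. The comparison took in all 26323 gene rows of the deposited gene-level table and 4 of the 6 arrays of the series, 2 per sorted population. The cells came from wild-type mouse embryonic fibroblasts (MEFs), which before transduction had been depleted of cells positive for CD41, CD31, c-KIT and CD45. Both sorted populations carried lentiviral ERG, GATA2, LMO2, RUNX1c and SCL (gene symbol Tal1) and were grown in a medium for blood cells with added cytokines. c-KIT+ cells were sorted at day 12 after transduction and CDH5+ cells at day 8, so that the surface marker and the day differ together between the populations and their parts cannot be told apart. Whether the CDH5+ cells used for the arrays had first been depleted of c-KIT+ cells is not stated. Untreated MEFs, with 2 arrays, received no factors and show the level in the starting cells. All arrays were Mouse Exon 1.0 ST arrays, labelled as biological replicates with no account of how the cultures were kept apart, so the p-values measure the spread between these arrays.

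In the embryo, the first blood stem and progenitor cells arise from hemogenic endothelium, a specialised vessel lining. Its cells lose the junctions, receptors and shape of endothelium and bud off as round blood cells, a step called the endothelial-to-hematopoietic transition. CDH5 (VE-cadherin) is the adhesion protein of endothelial junctions, and c-KIT is the stem cell factor receptor, carried by blood stem and progenitor cells and by mast cells. SOXF proteins, Notch and ETS factors maintain the endothelial state, while RUNX1, GFI1 and GFI1B are known for shutting it down as blood forms.

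Of the factors transduced into both populations, 4 bind short DNA motifs, while LMO2 acts through its partners: GGAAG for ETS proteins such as ERG, GATAA for GATA2, CAGCTG or CAGATG for SCL and TGTGGT for RUNX1. Promoters of 5 genes with large differences in level, spread over the endothelial, eosinophil, granzyme and DNA replication genes described below, are printed here as 300-base windows around the RefSeq gene start (build GRCm38.p6), 5′ to 3′ on the strand of the gene. Capitals mark each GGAAG or GATAA match on either strand, so that the reverse strand reads CTTCC or TTATC. Tek and Tspan7 had lower values in c-KIT+ cells, and Prg3, Gzmc and Mcm3 had higher values.
Tek, chr4:94739039-94739338 (+): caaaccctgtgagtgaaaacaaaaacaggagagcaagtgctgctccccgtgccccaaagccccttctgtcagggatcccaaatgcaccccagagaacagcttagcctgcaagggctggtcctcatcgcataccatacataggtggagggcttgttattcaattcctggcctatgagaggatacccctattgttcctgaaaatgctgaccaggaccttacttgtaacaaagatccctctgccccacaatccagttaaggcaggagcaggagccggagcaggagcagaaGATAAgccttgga
Tspan7, chrX:10484866-10485165 (+): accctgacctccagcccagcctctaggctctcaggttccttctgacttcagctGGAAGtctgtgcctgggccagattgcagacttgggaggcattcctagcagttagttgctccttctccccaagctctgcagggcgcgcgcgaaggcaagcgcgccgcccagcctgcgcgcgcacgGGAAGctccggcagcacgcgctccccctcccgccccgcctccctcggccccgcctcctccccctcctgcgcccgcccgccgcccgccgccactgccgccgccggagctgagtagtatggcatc
Prg3, chr2:84987965-84988264 (+): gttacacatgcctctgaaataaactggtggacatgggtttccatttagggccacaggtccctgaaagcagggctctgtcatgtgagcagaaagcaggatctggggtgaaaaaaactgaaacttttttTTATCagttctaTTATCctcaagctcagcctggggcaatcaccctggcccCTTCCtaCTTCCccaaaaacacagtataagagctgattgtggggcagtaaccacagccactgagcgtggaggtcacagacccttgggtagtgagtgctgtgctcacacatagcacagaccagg
Gzmc, chr14:56234608-56234907 (-): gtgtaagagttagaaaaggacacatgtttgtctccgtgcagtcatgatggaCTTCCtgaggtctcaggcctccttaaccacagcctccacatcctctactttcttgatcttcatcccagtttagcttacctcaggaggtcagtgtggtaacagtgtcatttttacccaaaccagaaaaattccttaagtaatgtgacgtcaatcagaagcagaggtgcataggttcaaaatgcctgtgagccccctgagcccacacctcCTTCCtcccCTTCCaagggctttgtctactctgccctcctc
Mcm3, chr1:20820263-20820562 (-): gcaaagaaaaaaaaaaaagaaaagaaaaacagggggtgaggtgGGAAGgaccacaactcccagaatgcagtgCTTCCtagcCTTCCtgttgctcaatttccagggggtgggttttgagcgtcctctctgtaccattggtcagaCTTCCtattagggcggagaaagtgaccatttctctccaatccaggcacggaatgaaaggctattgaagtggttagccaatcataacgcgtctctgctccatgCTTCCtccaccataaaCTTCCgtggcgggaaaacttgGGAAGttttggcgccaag

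The Mcm3 window held 7 matches to GGAAG, the Gzmc window 3, the Prg3 and Tspan7 windows 2 each, and the Prg3 window also 2 matches to GATAA and the Tek window 1. Over all 27025 genes with a window in the RefSeq table, 71.1% held GGAAG, 25.8% GATAA, 30.4% CAGCTG or CAGATG and 16.9% TGTGGT at least once, counting both strands and overlapping matches in the first window listed for a gene. Of the endothelial list below, 21 of 37 genes had a window and 19 of these (90.5%) held GGAAG, as did 12 of the 13 primary granule genes with a window (92.3%), a list that lay higher and not lower in c-KIT+ cells. Among the 5 eosinophil genes with a window, 4 held GATAA, against 0 of the 13 primary granule genes with one. Of the 38 DNA replication genes with a window, 32 (84.2%) held GGAAG and 4 held GATAA. A match is a description of the letters and not a bound site. Promoters of Cdh5, Lyve1 and Aplnr are not shown.

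Both sort markers differed in the direction of the sort. Cdh5 (ENSMUSG00000031871) had log2 values of 7.20 and 7.49 in c-KIT+ cells, against 10.16 and 10.95 in CDH5+ cells and 5.26 and 5.01 in untreated MEFs. Kit (ENSMUSG00000005672) had 8.19 and 8.33 in c-KIT+ cells, against 6.98 and 7.30 in CDH5+ cells and 4.54 and 4.73 in untreated MEFs. The c-KIT+ arrays thus still lay above the untreated arrays in Cdh5, and the CDH5+ arrays lay above them in Kit. Since the cells were sorted on these proteins, the values are a check of the labels and not a result.

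Array medians ranged between 5.54 and 5.62 on the log2 scale, and the 95th percentile of 884 olfactory receptor genes, used here as the level of background, between 5.90 and 6.04. Across genes, the c-KIT+ arrays correlated at 0.97, the CDH5+ arrays at 0.94 and the untreated arrays at 0.91 (Pearson's r, with genes that are not independent replicates). The CDH5+ pair was not alike in its fibroblast genes. Over all genes, 15434 of 26323 were higher on CDH5+ replicate 1 than on replicate 2. All 53 genes of a fibroblast and matrix list were higher on replicate 1 (median of replicate 2 minus replicate 1, -1.52), and all 9 of an eosinophil list were higher on replicate 2. Medians against each CDH5+ array alone are therefore given for lists in which they lie well apart. The untreated pair differed in cell cycle genes, with median values of the mitosis list of 5.04 and 7.81, and this spread enters the shared error of the fit.

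No gene passed limma's test between c-KIT+ and CDH5+ cells at a Benjamini-Hochberg adjusted p under 0.05 (0 of 26323, 0%), and the lowest adjusted p was 0.111. At an unadjusted p under 0.05, 2944 genes (11.2%) were higher and 1261 (4.79%) lower in c-KIT+ cells. A difference of at least 1 on the log2 scale with both c-KIT+ arrays on one side of both CDH5+ arrays, called separated here, was found for 1255 higher (4.77%) and 795 lower genes (3.02%). Of these, 284 higher genes had a c-KIT+ mean within background and 297 lower genes a CDH5+ mean within background, so that they were within it even in their higher population. Only 40 higher and 95 lower genes were separated by at least 2. The median difference over all genes was 0.10, with 15654 of 26323 positive, and the median standard error 0.27. In a fit of the 4 sorted arrays alone, 4537 genes (17.2%) were higher and 1717 (6.52%) lower with an unadjusted p under 0.05, again with 0 past the adjusted threshold. Quantile normalization turned the balance, with 780 higher and 1038 lower genes separated and 1757 in each direction with an unadjusted p under 0.05.

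With dim genes left out, so that the 10459 genes with a mean above background over the 6 arrays were tested, 4 genes passed the adjusted threshold as higher and 12 as lower, each at limma's adjusted p = 0.0493. Among the higher ones were Cst7, Gpr171 and Tcrg-C4. The lower ones were H19, Lyve1, Aplnr, Cdh5, Gbp9, Hspg2, Mest, Col4a1, Ecscr, Ldb2, Dab2 and a transcript with only a clone name. The filter took the mean over all 6 arrays, so a gene could enter through the population in which it was high. Tcrg-C4 had CDH5+ and untreated means within background, and Aplnr and Gbp9 had c-KIT+ and untreated means within background. Passing the filter is therefore not independent of the difference. Below, genes are given by their values, and "higher" and "lower" describe values on these arrays and not calls of the test over all genes. In the fit of all genes, the adjusted p of every gene named was 0.111 or more. Counts of list members at limma's unadjusted p under 0.05 stand beside 11.2% higher and 4.79% lower over all genes. Counts of separated members stand beside 4.77% and 3.02%. In bulk RNA of this kind, fewer cells of a type and less RNA per cell cannot be told apart.

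**Figure D1:**
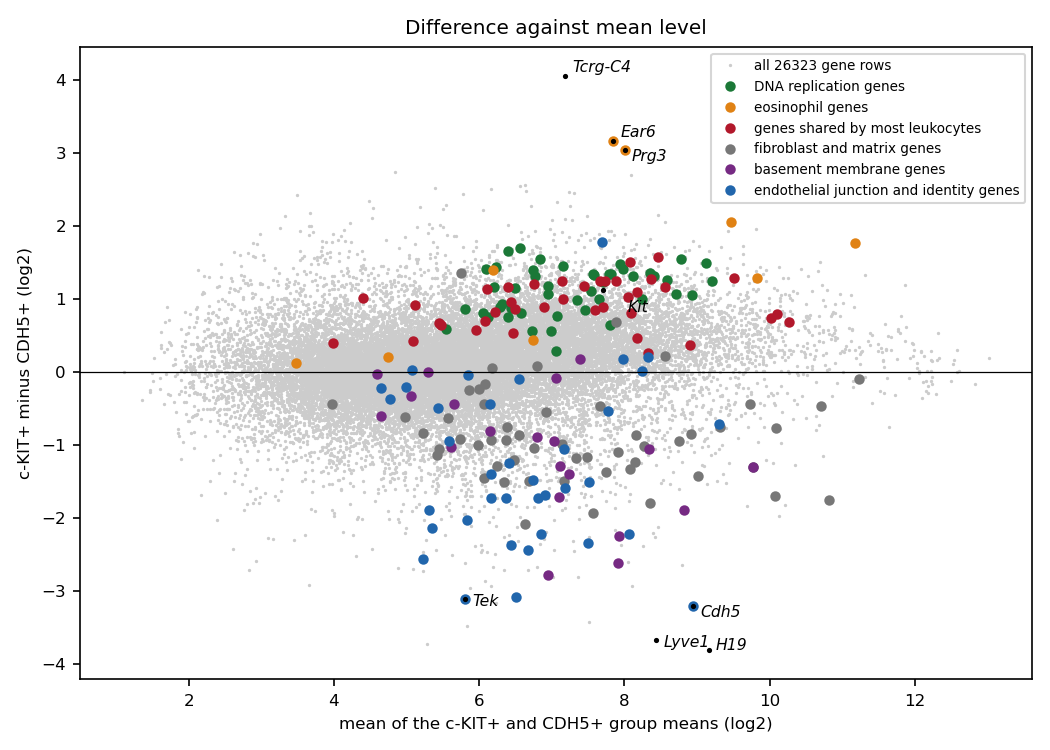
Each point is a gene row, with the mean of the c-KIT+ and CDH5+ group means on the x axis and their difference, c-KIT+ minus CDH5+, on the y axis (both log2). Coloured points are members of 6 lists. Eosinophil genes reach 3.16 above 0 (Ear6), and the endothelial gene Cdh5, a gene of the sort, lies at -3.21.

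Among genes above background in the higher population, the largest positive difference belonged to Tcrg-C4 (ENSMUSG00000076757), a constant segment of the T cell receptor gamma chain. It had 9.06 and 9.37 in c-KIT+ cells, against 5.50 and 4.81 in CDH5+ cells and 3.96 and 3.89 in untreated MEFs, a log2 difference of 4.06 ± 0.29 (SE, limma's adjusted p = 0.111). Gzmc, a granzyme (a serine protease of cytotoxic granules), had 10.74 and 10.91 in c-KIT+ cells and 8.57 and 7.60 in CDH5+ cells. Scin (scinderin), which severs actin filaments, had 7.74 and 8.08 in c-KIT+ cells and 5.49 and 5.20 in CDH5+ cells. These genes had no overlap between the populations, and all 3 lay at 4.17 or less in untreated MEFs. Akr1c13, an aldo-keto reductase, was higher by 2.45, and Trbv13-2, a variable segment of the T cell receptor beta chain, by 2.55. Bcl2a1c, of a family that protects blood cells from death, was higher by 2.52, but differed by -0.38 when a gene's value was the median of its probe sets.

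A second kind of gene at this end has many near-identical copies in the genome, so that array probes may read several of them. Rpl29, a ribosomal protein gene, was higher by 2.70, the histone gene Hist2h2ac by 2.47, the histone pseudogene H3f3a-ps2 by 2.44 and the pseudogene Gm13202 by 2.46. Rpl29 had 9.29 and 9.59 in c-KIT+ cells, against 7.08 and 6.40 in CDH5+ cells and 7.16 and 9.96 in untreated MEFs, so that the untreated arrays alone spanned more than the difference. Which copies the probes read was not tested.

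At the other end stood H19 (ENSMUSG00000000031), an imprinted long noncoding RNA of embryonic tissues. It had 7.17 and 7.34 in c-KIT+ cells, against 11.56 and 10.57 in CDH5+ cells and 11.58 and 11.24 in untreated MEFs, a log2 difference of -3.81 ± 0.36 (SE, limma's adjusted p = 0.111). The CDH5+ and untreated arrays overlapped in H19, and the c-KIT+ arrays lay below both. Lyve1, a hyaluronan receptor of lymphatic and yolk sac endothelium, had 6.58 and 6.63 in c-KIT+ cells, against 9.85 and 10.69 in CDH5+ cells and 4.203 and 4.005 in untreated MEFs. Aplnr, the apelin receptor of vessels, had 5.82 and 5.78 in c-KIT+ cells, against 8.81 and 9.63 in CDH5+ cells and 5.001 and 4.55 in untreated MEFs. Both receptors were therefore high in the CDH5+ population alone of these 3.

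Other genes at this end included Scn3b, a sodium channel subunit, with a difference of -3.14, and Igfbp3, a binding protein for insulin-like growth factors, with -2.92. Meg3, another imprinted noncoding RNA, differed by -2.86, and Mmp13, a collagenase, by -2.81. Ttc9, with a difference of -3.48, rested on uneven pairs, with 3.35 and 4.84 in c-KIT+ cells, against 6.44 and 8.70 in CDH5+ cells.

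**Figure D2:**
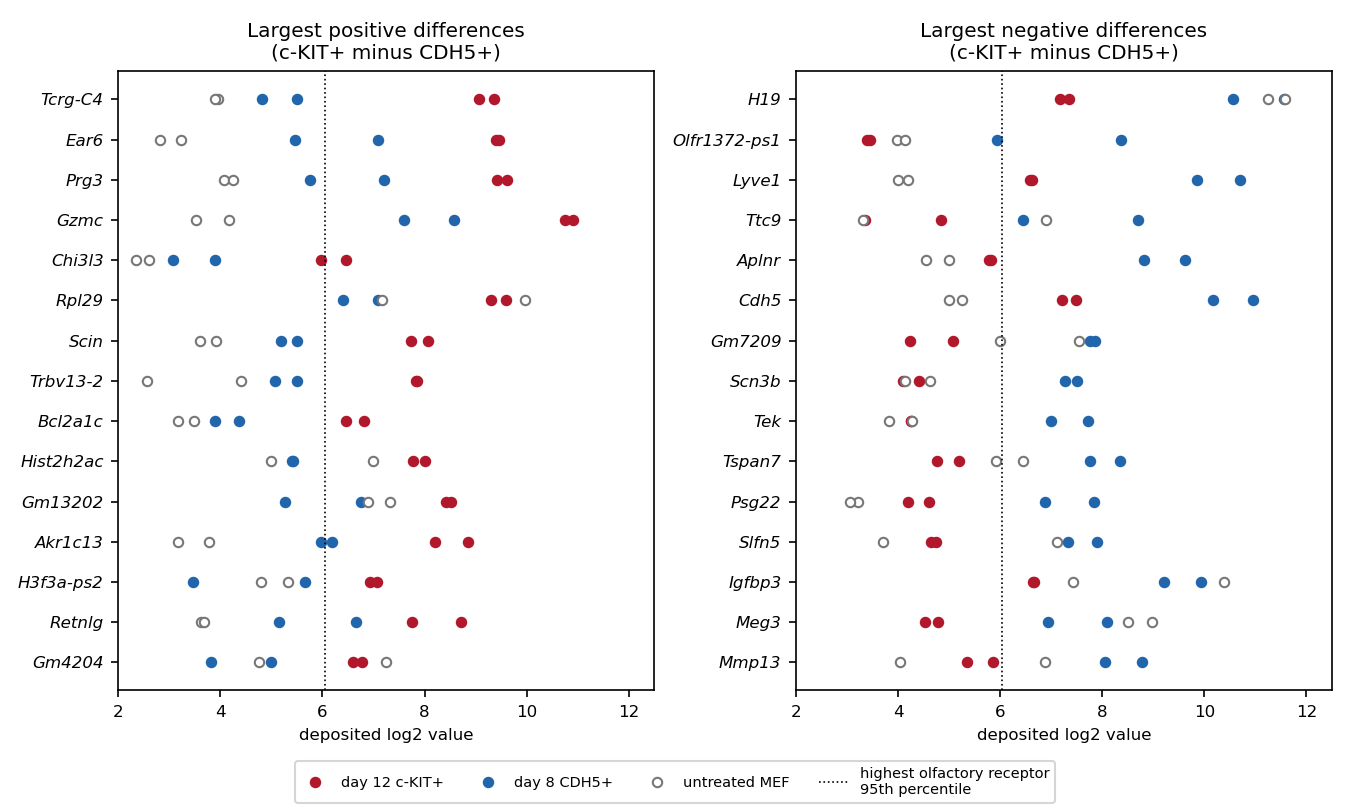
Deposited log2 values (x axis) of the 15 genes with the largest positive and the 15 with the largest negative differences between c-KIT+ and CDH5+ cells that had no overlap, an unadjusted p under 0.05 and a higher group above background; each circle is an array. For Tcrg-C4 the c-KIT+ arrays lie at 9.06 and 9.37, above every other array, and for Lyve1 the CDH5+ arrays lie at 9.85 and 10.69, above every other array.

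Endothelial genes had the lowest median difference of the 42 gene lists over both CDH5+ arrays. Against CDH5+ replicate 1 alone, the fibroblast and matrix list (-1.63) and the venous, lymphatic and scavenger list (-1.24) lay lower. Of 37 genes for endothelial junctions and identity, 23 were lower and 1 higher with an unadjusted p under 0.05, and 22 were lower and 1 higher among separated genes. This list holds the sort gene Cdh5, which is among the lower genes in both counts. The median difference was -1.48, against 0.10 over all genes, and it was -1.12 against CDH5+ replicate 1 alone and -1.69 against replicate 2 alone. In c-KIT+ cells 22 of the 37 had group means within background, against 6 in CDH5+ cells. Over all 26323 genes these counts were 15450 and 16150. The c-KIT+ count of the list thus lay near the share of all genes, and the CDH5+ count below it. The list median was 5.76 and 5.80 on the c-KIT+ arrays, 7.004 and 7.72 on the CDH5+ arrays and 5.16 and 5.14 on the untreated arrays.

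Tek (ENSMUSG00000006386), the TIE2 receptor for angiopoietins, had 4.26 and 4.25 in c-KIT+ cells, against 7.004 and 7.72 in CDH5+ cells and 3.83 and 4.27 in untreated MEFs, so that c-KIT+ and untreated cells were alike in being below background. The difference was -3.11 ± 0.31 (SE, limma's adjusted p = 0.111). Tspan7, a tetraspanin, had 4.75 and 5.19 in c-KIT+ cells and 7.77 and 8.34 in CDH5+ cells. Kdr (VEGFR2), the main receptor for VEGF in vessels, had 3.88 and 4.01 in c-KIT+ cells and 5.76 and 7.24 in CDH5+ cells, where only replicate 2 was above background. Eng (endoglin), a TGF-beta coreceptor of endothelium, differed by -1.51, and Esam and Cldn5, proteins of endothelial junctions, by -2.22 and -2.14.

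Members of the list also differed from its median. Pecam1 (CD31), found on endothelium, platelets and leukocytes, had 8.00 and 8.16 in c-KIT+ cells, which lay between the 7.24 and 8.55 of the CDH5+ arrays. Vwf, which codes for the platelet-binding von Willebrand factor, had 5.85 and 5.80 in c-KIT+ cells and 6.10 and 5.64 in CDH5+ cells, within background in both by its means. Of the 37 members, 5 had a positive difference. Among them was Podxl, which codes for podocalyxin, a sialomucin of endothelium and blood progenitors, with a difference of 1.78. Icam1, an adhesion molecule that binds leukocyte integrins, had 6.21 and 6.46 in c-KIT+ cells and 7.79 and 7.43 in CDH5+ cells.

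The transcription factors of the endothelial state had differences in both directions. Of 24 such genes, 8 were lower and 5 higher with an unadjusted p under 0.05, with a median of -0.26. Sox18 had 5.62 and 5.88 in c-KIT+ cells, against 7.45 and 8.62 in CDH5+ cells, and Sox7 had 4.89 and 5.52 in c-KIT+ cells, against 6.71 and 7.67 in CDH5+ cells. Sox17, the third SOXF gene, differed by -1.13. Bcl6b, a transcriptional repressor active in endothelium, differed by -2.47. The 5 higher genes were Tal1, Lyl1, Gata2, Fli1 and Etv6, which also serve in blood progenitors, with differences between 0.60 and 0.89. Of these, Tal1 and Gata2 are transduced factors, whose values may include the vector's transcript.

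Among 21 arterial and Notch genes, 8 were lower and 1 higher with an unadjusted p under 0.05, and the median was -0.81. Dll4, a Notch ligand of arterial endothelium, had a group mean within background in c-KIT+ cells and values of 5.95 and 7.56 in CDH5+ cells. Jag1, another Notch ligand, differed by -1.61, the ephrin gene Efnb2 by -1.496 and Nrp1, a coreceptor for VEGF and semaphorins, by -1.70. Unlike Dll4, these 3 had higher values in untreated MEFs than in either sorted population, with Nrp1 at 6.66 and 6.73 in c-KIT+ cells, 8.45 and 8.34 in CDH5+ cells and 8.94 and 8.86 in untreated MEFs.

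Of 16 venous, lymphatic and scavenger receptor genes, 8 were lower and 0 higher with an unadjusted p under 0.05, and the median was -1.17, with -1.24 against CDH5+ replicate 1 alone and -0.79 against replicate 2 alone. Beside Lyve1 and Aplnr, Nrp2 differed by -2.44 and Flt4 (VEGFR3), the lymphatic VEGF receptor, by -2.33. Flt4 had 5.17 and 5.29 in c-KIT+ cells and 7.03 and 8.09 in CDH5+ cells, with no overlap.

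**Figure D3:**
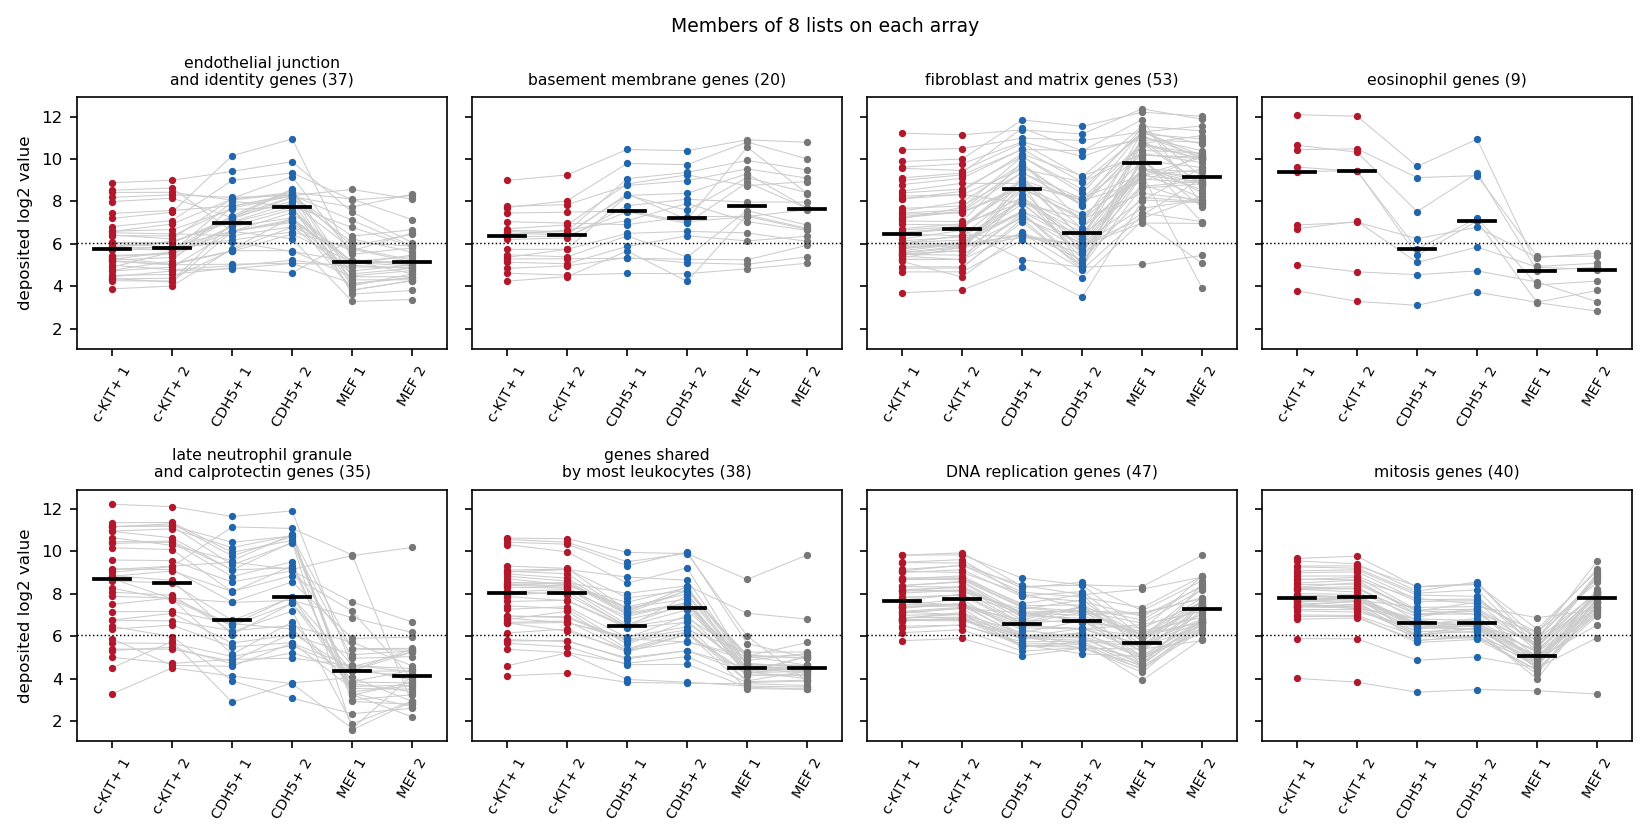
Deposited log2 values (y axis) of every measured member of 8 gene lists on each array (x axis); a grey line joins a gene, a black bar is the list's median and the dotted line is the highest background level. Endothelial medians are 5.76 and 5.80 on the c-KIT+ arrays and 7.004 and 7.72 on the CDH5+ arrays, whereas the fibroblast and matrix medians of the CDH5+ arrays stand apart at 8.60 and 6.52.

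Matrix genes divided into a group that was lower against both CDH5+ arrays and a group that was not. Of 20 basement membrane genes, whose proteins form the sheet beneath endothelium, 11 were lower and 0 higher with an unadjusted p under 0.05. Their median difference was -0.99, with -1.05 against CDH5+ replicate 1 alone and -0.95 against replicate 2 alone. Hspg2 (perlecan) had 6.64 and 6.57 in c-KIT+ cells, against 9.08 and 9.37 in CDH5+ cells and 9.94 and 9.49 in untreated MEFs. Col4a1, a chain of type IV collagen, had 6.71 and 6.90 in c-KIT+ cells, against 8.83 and 9.25 in CDH5+ cells and 8.74 and 8.94 in untreated MEFs. The laminin chain gene Lama4 differed by -2.78 and Nid1 (nidogen), which links laminin to collagen, by -1.89. For Col4a1 the CDH5+ and untreated arrays overlapped, and the c-KIT+ arrays lay below both.

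For the 53 genes of fibroblasts and interstitial matrix, 10 were lower and 1 higher with an unadjusted p under 0.05, and 17 lower and 1 higher were separated. The median was -0.93 over both CDH5+ arrays, but -1.63 against replicate 1 alone and -0.01 against replicate 2 alone. Their median level was 6.47 and 6.73 on the c-KIT+ arrays, 8.60 and 6.52 on the CDH5+ arrays and 9.82 and 9.14 on the untreated arrays. One CDH5+ array therefore lay at the level of the c-KIT+ arrays. Postn (periostin), a matrix protein of mesenchyme, showed it with 5.49 and 5.69 in c-KIT+ cells and 9.10 and 6.25 in CDH5+ cells. Mmp2, a gelatinase, had 7.18 and 7.72 in c-KIT+ cells and 10.12 and 8.38 in CDH5+ cells.

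Some members were lower against either array. Fn1 (fibronectin) had 9.89 and 10.004 in c-KIT+ cells, against 11.85 and 11.55 in CDH5+ cells and 12.21 and 12.02 in untreated MEFs, a difference of -1.75 ± 0.21 (SE, limma's adjusted p = 0.129). Loxl2, which crosslinks collagen, had 6.49 and 6.73 in c-KIT+ cells and 9.01 and 8.07 in CDH5+ cells. Col5a1 differed by -0.86, and Col2a1, the cartilage collagen, by less than its error, with 5.94 and 5.77 in c-KIT+ cells and 5.82 and 5.90 in CDH5+ cells. Fap, a protease of activated fibroblasts, was the member with the opposite sign and an unadjusted p under 0.05, with a difference of 1.36. The part of remaining fibroblasts in the difference between the CDH5+ arrays was not tested.

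The contractile, mesenchymal and TGF-beta lists also moved with CDH5+ replicate 1. Of 38 contractile and actin genes, 12 were lower and 0 higher with an unadjusted p under 0.05, with a median of -0.37 that was -0.71 against replicate 1 and -0.15 against replicate 2. Acta2 (smooth muscle actin) had 8.46 and 8.93 in c-KIT+ cells, against 10.52 and 9.08 in CDH5+ cells and 12.27 and 12.36 in untreated MEFs. Actg2, another smooth muscle actin, overlapped, with 5.82 and 6.37 in c-KIT+ cells and 6.70 and 6.03 in CDH5+ cells. Tpm4, a tropomyosin, differed by -1.53 and Cnn3, a calponin, by -1.54, both without overlap.

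Of 32 mesenchymal transcription factors and targets of the YAP coactivator, 9 were lower and 1 higher, with a median of -0.45 that was -0.72 against CDH5+ replicate 1 and -0.18 against replicate 2. Ctgf, a YAP target that binds growth factors, had 6.98 and 6.88 in c-KIT+ cells, against 8.38 and 8.35 in CDH5+ cells and 10.67 and 10.63 in untreated MEFs, a graded order without overlap. Snai1, a repressor known for the epithelial-to-mesenchymal transition, differed by -1.49, and Tead1, the DNA-binding partner of YAP, by -1.40. Of 39 TGF-beta and BMP pathway genes, 9 were lower and 0 higher, with a median of -0.45 that was -0.71 against CDH5+ replicate 1 and -0.25 against replicate 2. Tgfbi, a secreted TGF-beta target, differed by -2.45, and Bmp1, a protease that trims procollagen, by -1.64.

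On the blood side, transcription factors were higher in number but by smaller steps. Of 42 blood transcription factors, 19 were higher and 2 lower with an unadjusted p under 0.05, and the median was 0.57, against 0.10 over all genes. It was 0.30 after quantile normalization, and the mean of the list was 0.38. Cebpe, a factor of late granulocyte development, had 10.45 and 10.48 in c-KIT+ cells, against 9.13 and 9.22 in CDH5+ cells and 5.41 and 5.42 in untreated MEFs. Gfi1b, a repressor of red cell and platelet precursors, had 8.73 and 8.67 in c-KIT+ cells, against 7.47 and 7.38 in CDH5+ cells and 5.62 and 5.69 in untreated MEFs. Ikzf1 (IKAROS) was higher by 1.18, and Spi1 (PU.1), needed for myeloid cells, by 1.15. Both CDH5+ arrays already lay above the untreated arrays in each of these genes, and the c-KIT+ arrays lay above the CDH5+ arrays.

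The lower blood factors were Mecom (EVI1), a factor of stem cells whose means were within background in both populations, with -0.96, and Hoxb4, with -0.81. The transduced genes are read by probe sets that may also detect the vector's transcript, and the sources cannot be told apart here. Runx1 had 9.56 and 9.53 in c-KIT+ cells, against 8.64 and 8.54 in CDH5+ cells and 8.55 and 8.37 in untreated MEFs. Gata2 had 9.30 and 9.11 in c-KIT+ cells and 8.45 and 8.39 in CDH5+ cells, and Tal1 8.89 and 8.82 in c-KIT+ cells and 8.14 and 8.35 in CDH5+ cells. Lmo2, the bridging partner of SCL and GATA factors, was higher by 0.59. Erg was the 1 of the 5 with the opposite sign, with 7.26 and 7.46 in c-KIT+ cells and 7.69 and 8.05 in CDH5+ cells.

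Surface genes of blood progenitors had a median difference of 0.24, with 5 of 26 higher and 2 lower with an unadjusted p under 0.05, but a median of 0.03 after quantile normalization. Spn (CD43), the sialophorin that appears as blood cells leave the endothelium, had 9.72 and 9.59 in c-KIT+ cells and 8.18 and 8.39 in CDH5+ cells. Itga2b (CD41), an early mark of blood commitment, had 8.12 and 8.10 in c-KIT+ cells and 7.59 and 8.00 in CDH5+ cells. Procr, a receptor of endothelium and stem cells, had 6.03 and 5.80 in c-KIT+ cells and 7.05 and 7.51 in CDH5+ cells, the opposite order. Ly6a (SCA-1) rested on 1 CDH5+ array, with 5.74 and 6.21 in c-KIT+ cells and 8.30 and 6.01 in CDH5+ cells.

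Genes shared by most leukocytes were higher in c-KIT+ cells throughout. All 38 had a positive difference, against 15654 of 26323 over all genes. With an unadjusted p under 0.05, 25 were higher and 0 lower, and the median was 0.90. It was 1.18 against CDH5+ replicate 1 alone and 0.67 against replicate 2 alone. Of the 38, 5 were higher on CDH5+ replicate 1 than on replicate 2, against 15434 of 26323 over all genes. Rac2, a GTPase of blood cell movement, had 9.31 and 9.195 in c-KIT+ cells, against 7.23 and 8.13 in CDH5+ cells and 4.98 and 5.13 in untreated MEFs. Cd52 had 8.94 and 8.74 in c-KIT+ cells and 7.08 and 7.58 in CDH5+ cells. Itgb2 (CD18), the shared chain of leukocyte integrins, had 9.06 and 8.94 in c-KIT+ cells and 7.14 and 8.33 in CDH5+ cells. None of these 3 overlapped, and their CDH5+ values all exceeded the untreated ones.

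Primary granule genes of neutrophil precursors were above background for 15 of 15 genes in c-KIT+ cells and all but 1 in CDH5+ cells. Of the 15, 8 were higher and 0 lower with an unadjusted p under 0.05, with a median of 0.95 that was 1.21 against CDH5+ replicate 1 and 0.69 against replicate 2. Elane (neutrophil elastase) had 10.16 and 10.20 in c-KIT+ cells, against 8.26 and 8.69 in CDH5+ cells and 4.72 and 4.65 in untreated MEFs. Cst7, a protease inhibitor of blood cells, had 10.79 and 10.78 in c-KIT+ cells and 8.90 and 8.77 in CDH5+ cells, a difference of 1.95 ± 0.20 (SE, limma's adjusted p = 0.111). Mpo (myeloperoxidase) differed less, with 11.66 and 11.64 in c-KIT+ cells, against 10.95 and 11.29 in CDH5+ cells and 4.65 and 4.83 in untreated MEFs. Of 35 late granule and calprotectin genes, 16 were higher and 0 lower, with a median of 0.75 that was 1.02 against CDH5+ replicate 1 and 0.47 against replicate 2. Chi3l3 (YM1), a lectin of myeloid cells, had 6.46 and 5.98 in c-KIT+ cells and 3.89 and 3.07 in CDH5+ cells. Retnlg was higher by 2.33 and Olfm4, of the specific granules, by 1.93. Wfdc17 had the opposite sign, with 9.01 and 9.28 in c-KIT+ cells and 11.15 and 11.08 in CDH5+ cells, but its untreated arrays read 9.83 and 2.81, which widened the error to 2.07.

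The eosinophil list had the highest median of the 42 lists over both CDH5+ arrays, 1.40, with 6 of 9 genes higher and 0 lower with an unadjusted p under 0.05. The median was 1.77 against CDH5+ replicate 1 alone and 1.118 against replicate 2 alone. Against replicate 2 alone, the DNA replication list (1.140) and the mitosis list (1.124) lay higher. Ear6 (ENSMUSG00000062148), an eosinophil-associated ribonuclease, had 9.40 and 9.46 in c-KIT+ cells, against 5.45 and 7.08 in CDH5+ cells and 3.23 and 2.83 in untreated MEFs. Prg3 (ENSMUSG00000027072), a granule protein related to major basic protein, had 9.62 and 9.42 in c-KIT+ cells, against 5.75 and 7.21 in CDH5+ cells and 4.07 and 4.24 in untreated MEFs. Epx (eosinophil peroxidase) had 10.65 and 10.33 in c-KIT+ cells and 7.52 and 9.35 in CDH5+ cells. Prg2 (major basic protein) had 12.09 and 12.02 in c-KIT+ cells and 9.65 and 10.94 in CDH5+ cells. Each granule gene was higher on CDH5+ replicate 2 than on replicate 1, and neither array reached the c-KIT+ values. The receptor genes Il5ra and Ccr3 were within background in both populations.

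Mast cell and basophil genes were mixed. Of 33, 10 were higher and 2 lower, with a median of 0.40. The higher ones include the sort gene Kit and the transduced factor Gata2. Gzmb (granzyme B) had 11.39 and 11.34 in c-KIT+ cells, against 9.82 and 10.13 in CDH5+ cells and 3.93 and 3.52 in untreated MEFs, and Cpa3, the carboxypeptidase of mast cells, was higher by 0.88. Ltc4s, which makes leukotriene C4, had 6.11 and 6.53 in c-KIT+ cells and 7.76 and 8.37 in CDH5+ cells. Mcpt4, a chymase of connective tissue mast cells, had 4.07 and 4.45 in c-KIT+ cells, against 6.59 and 4.81 in CDH5+ cells, where only replicate 1 was above background.

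Red cell and platelet genes had smaller medians than the granule lists. Of 39 red cell genes, 11 were higher and 0 lower, with a median of 0.27 that was 0.46 against CDH5+ replicate 1 and 0.21 against replicate 2. It was 0.15 after quantile normalization and 0.42 with probe set medians. Car2, a carbonic anhydrase of red cells, was higher by 1.17, and Klf1, the master factor of red cell genes, by 1.09. Klf1 had 6.69 and 6.38 in c-KIT+ cells and 5.38 and 5.50 in CDH5+ cells, where it was within background. The embryonic globin gene Hbb-bh1 was higher by 1.00, whereas Hba-x and Hbb-y, also embryonic globins, differed by 0.26 and 0.32. Of 39 megakaryocyte and platelet genes, 11 were higher and 1 lower, with a median of 0.26 that was 0.28 against CDH5+ replicate 1, 0.44 against replicate 2 and 0.07 after quantile normalization. Rgs18, a regulator of G protein signals in platelets, had 8.55 and 8.53 in c-KIT+ cells and 6.92 and 6.75 in CDH5+ cells. The von Willebrand receptor chain genes Gp1ba, Gp9 and Gp5 were higher by 1.15, 1.16 and 1.48.

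Monocyte and macrophage genes had a median of 0.05, with 8 of 47 higher and 6 lower, and without CDH5+ replicate 1 the median was -0.0027. Ms4a6d, a membrane protein of macrophages, had 3.76 and 3.97 in c-KIT+ cells and 6.12 and 7.07 in CDH5+ cells. Gpnmb, of lipid-laden macrophages and other cells, differed by -1.85. Ccl3 and Ccr2, also on this list, were higher by 2.16 and 1.71 and are described with the chemokines. Of 17 phagocyte oxidase and Fc receptor genes, 8 were higher and 0 lower, with a median of 0.88 that was 1.15 against CDH5+ replicate 1 and 0.47 against replicate 2. Cybb (gp91phox), the core of the phagocyte oxidase, had 7.18 and 6.93 in c-KIT+ cells and 5.46 and 6.37 in CDH5+ cells.

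Chemokines and their receptors had differences in both directions. Of 43 genes, 8 were higher and 9 lower, and the median of -0.09 turned to 0.10 without CDH5+ replicate 2. Receptors were among the higher genes: Ccr2, the receptor for CCL2, had 6.75 and 6.86 in c-KIT+ cells and 5.06 and 5.13 in CDH5+ cells, and Cxcr4, the receptor for CXCL12, was higher by 1.21. Several ligands were lower. Ccl2 had 9.11 and 9.50 in c-KIT+ cells, against 11.14 and 11.10 in CDH5+ cells and 9.55 and 9.45 in untreated MEFs, and Cxcl10 differed by -1.69. Ccl3, a ligand made by activated blood cells, ran the other way, with 9.89 and 9.20 in c-KIT+ cells and 6.38 and 8.39 in CDH5+ cells.

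Genes of cell division were higher in c-KIT+ cells as a block. All 47 DNA replication genes had a positive difference, against 15654 of 26323 over all genes. Their median was 1.17, with 1.16 against CDH5+ replicate 1 alone and 1.14 against replicate 2 alone. At an unadjusted p under 0.05, 19 were higher and 0 lower, and 29 were separated. In the fit of the 4 sorted arrays, which leaves out the uneven untreated pair, 45 of 47 were higher with an unadjusted p under 0.05. All 40 mitosis genes had a positive difference, also with a median of 1.17, and 32 were separated. Only 1 of the 40 had an unadjusted p under 0.05 in the fit of 6 arrays, against 39 in the fit of the 4 sorted arrays.

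Mcm3, a subunit of the replicative helicase, had 9.49 and 9.61 in c-KIT+ cells, against 7.90 and 8.10 in CDH5+ cells and 5.98 and 8.23 in untreated MEFs. Gins1, another helicase part, had 7.38 and 7.42 in c-KIT+ cells and 6.01 and 5.41 in CDH5+ cells. The primase gene Prim2 was higher by 1.55. Cdc20, an activator of the anaphase-promoting complex, had 8.27 and 8.33 in c-KIT+ cells, against 6.71 and 6.47 in CDH5+ cells and 5.33 and 7.95 in untreated MEFs. The kinase gene Ttk was higher by 1.70, and the kinetochore gene Ndc80 by 1.63. The c-KIT+ arrays were thus above both CDH5+ arrays in each. Untreated replicate 2 came close to the c-KIT+ arrays for Cdc20, Ttk and Prim2 and exceeded them for Ndc80, with 7.44 and 7.65 in c-KIT+ cells, 5.79 and 6.04 in CDH5+ cells and 4.22 and 7.78 in untreated MEFs. The mitosis list had median levels of 7.80 and 7.84 on the c-KIT+ arrays, 6.63 and 6.61 on the CDH5+ arrays and 5.04 and 7.81 on the untreated arrays.

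Of 25 cell cycle inhibitors and p53 targets, 3 were higher and 1 lower, near the shares over all genes (11.2% and 4.79%). The median of 0.03 was -0.15 against CDH5+ replicate 1, 0.12 against replicate 2 and -0.25 after quantile normalization. Perp, a p53 target of cell junctions, had 9.55 and 9.70 in c-KIT+ cells and 8.29 and 7.82 in CDH5+ cells, and Cdkn2c (p18), an inhibitor of CDK4 and CDK6, was higher by 1.29.

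Interferon response genes were lower in number than higher, with 9 lower and 3 higher of 36 and a median of -0.30. This median was -0.70 against CDH5+ replicate 1 alone and -0.14 against replicate 2 alone. Of the 36, 34 had their higher CDH5+ value on replicate 1, against 15434 of 26323 over all genes. Rtp4, a chaperone of receptors, had 4.92 and 5.21 in c-KIT+ cells and 7.27 and 6.24 in CDH5+ cells. Psmb8, a subunit of the immunoproteasome, had the opposite order, with 7.62 and 7.68 in c-KIT+ cells and 6.70 and 5.93 in CDH5+ cells. Psmb9, another subunit, was higher by 1.31 but differed by -0.03 when probe set medians were used.

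Mitochondrial respiratory chain genes had a median of 0.56, with 13 of 39 higher and 0 lower, and Ndufa9, a subunit of complex I, was higher by 1.13. After quantile normalization the median was 0.27. Ribosomal protein genes had a median of 0.18, with 3 of 36 higher and 0 lower, against 11.2% and 4.79% over all genes. Heme, iron and oxygen handling genes had 0.21, which turned to -0.05 after quantile normalization, and Hmox1 (heme oxygenase) had 8.505 and 8.80 in c-KIT+ cells and 10.01 and 10.09 in CDH5+ cells. Fgf3, a fibroblast growth factor, had 8.498 and 8.505 in c-KIT+ cells, against 6.87 and 6.47 in CDH5+ cells and 4.46 and 5.38 in untreated MEFs.

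Most lists of markers of other cell types stayed mostly within background in both populations. Over all 26323 genes, 15450 were within background in c-KIT+ cells and 16150 in CDH5+ cells, and the adipocyte count in c-KIT+ cells lay below that share. Within background in c-KIT+ cells were 27 of 32 lymphoid genes, 17 of 18 neuronal, 17 of 18 skeletal muscle, 11 of 14 hepatocyte, 17 of 19 pluripotency, 11 of 16 epithelial and 5 of 10 adipocyte markers. In CDH5+ cells these were 29 lymphoid, 16 neuronal, 17 muscle, 11 hepatocyte, 15 pluripotency, 12 epithelial and 7 adipocyte markers. Exceptions included Gap43, a growth cone protein, with 5.14 and 5.50 in c-KIT+ cells and 7.39 and 8.68 in CDH5+ cells. Another was Fabp4, a fatty acid carrier of fat cells and capillary endothelium. It had 6.98 and 7.14 in c-KIT+ cells and 9.25 and 9.65 in CDH5+ cells. Nkg7, of the lymphoid list, had 9.66 and 9.73 in c-KIT+ cells and 8.05 and 8.85 in CDH5+ cells. The keratin gene Krt18 had 7.66 and 7.77 in c-KIT+ cells, against 6.64 and 6.60 in CDH5+ cells and 5.06 and 8.69 in untreated MEFs.

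**Figure D4:**
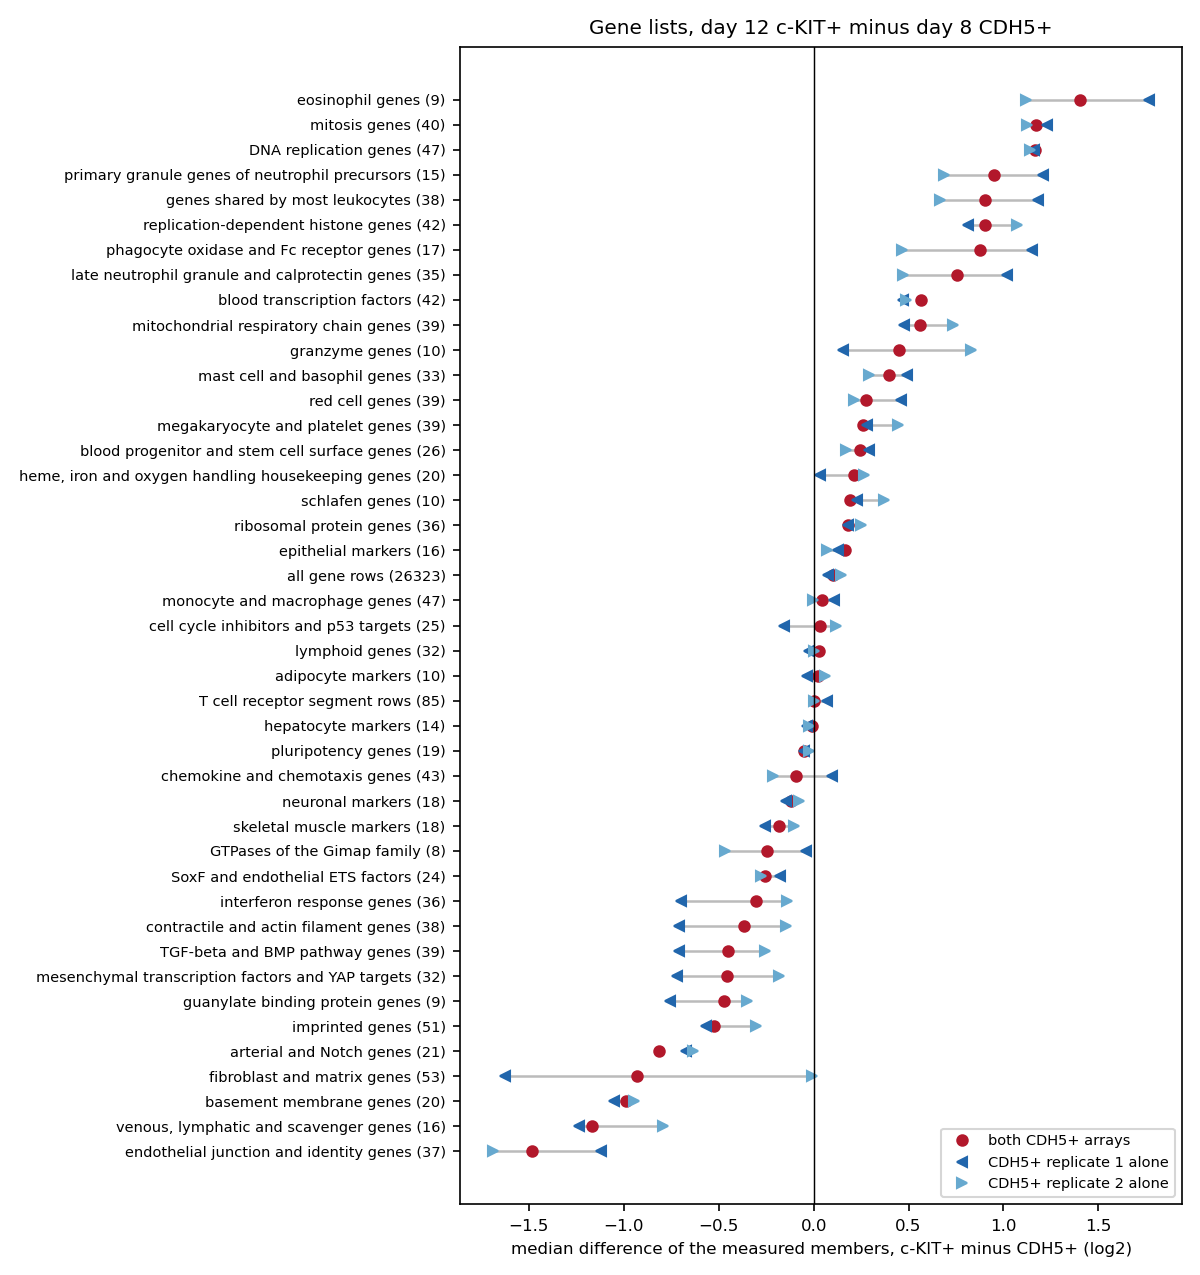
Median log2 difference, c-KIT+ minus CDH5+ (x axis), of the measured members of each gene list (y axis, with the number of members), over both CDH5+ arrays (circles) and against each CDH5+ array alone (triangles). Eosinophil genes lie at 1.40, DNA replication and mitosis genes at 1.17 each and endothelial genes at -1.48, while the fibroblast and matrix list spans -1.63 and -0.01 and chemokine genes turn sign between the CDH5+ arrays.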

How the data were processed

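The authors deposited log2 expression values per gene (26323 rows) and per probe set, from Mouse Exon 1.0 ST arrays; how they were normalized, with which software and on which genome build was not stated, so promoter coordinates belong to the RefSeq table and not to the arrays. Of the deposited gene symbols, 43 repeat another row and 27 had become dates. From these log2 values a mean per group was fitted to all 6 arrays with limma 3.58.1 in R 4.3.3 (contrast c-KIT+ minus CDH5+, empirical Bayes, two-sided, Benjamini-Hochberg over all rows), after the paper's methods, and no row was filtered. The fit has 3 residual degrees of freedom before the variance prior. The script was tested on simulated data. Number of arrays limits the precision, and depth does not apply.

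Named are the sort genes, the transduced factors, genes the paper names, the 15 largest differences per direction (no overlap, unadjusted p under 0.05, higher group above background) and the 4 largest per list; other members named beside them were chosen after their values were seen. Members, the 35 gene lists and their tests were chosen with earlier results of these data known, and 7 more lists were added after their values were seen. Lists that hold the genes the paper names, or the themes it drew from these arrays, are not independent of them. Sort genes and transduced factors were not taken out of the lists that hold them. Alternatives were the 4 sorted arrays alone, a replicate block, quantile normalization, median centring, a filter on dim genes, other variance priors, 1 row per symbol, the median of a gene's probe sets (of 1236087 probe sets, 321091 had 1 gene symbol, 7796 several and 907200 none in the platform table, which gave 22378 genes), a larger size threshold, list means and leaving out each array. Comparing with each CDH5+ array alone, and counting list members in the fit of the 4 sorted arrays, were added after seeing the data. Some genes that the rule names are not reported here.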

Additional observations from a re-analysis of the deposited data

How the results depend on the processing

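No gene passed limma's adjusted threshold under any alternative except the filter on dim genes, with 4 higher and 12 lower of 10459, where fewer genes were tested. That filter can let a gene in by its high level in a single population. It also left 612 lower genes with an unadjusted p under 0.05, and 758 higher and 371 lower separated genes. The fit of the 4 sorted arrays, which equals leaving out an untreated array, gave 4537 higher genes with an unadjusted p under 0.05, and quantile normalization gave 1757, with 780 higher genes separated. A size threshold of 2 left 40 higher and 95 lower. Leaving out 1 array at a time, genes higher with an unadjusted p under 0.05 numbered between 937 (without c-KIT+ replicate 2) and 4537 and lower ones between 745 (without c-KIT+ replicate 1) and 1717, whereas c-KIT+ replicate 1 left out gave 1232 higher, c-KIT+ replicate 2 left out 777 lower and CDH5+ replicate 2 left out 1428 higher. Separated genes ranged between 1255 and 1891 (without CDH5+ replicate 1) higher and between 795 and 1336 (without CDH5+ replicate 2) lower. With an array of a sorted population left out, the rule of no overlap has fewer arrays to meet. Those separated counts are therefore not like for like with 1255 and 795. The cause of the shifts was not tested.

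Same-numbered arrays showed little shared deviation (correlations across genes of -0.05 for c-KIT+ with CDH5+, -0.02 for c-KIT+ with untreated and 0.12 for CDH5+ with untreated). With so few arrays, these values cannot tell whether same-numbered arrays came from shared cultures. The main fit used no pairing. With the replicate block, 0 genes passed, 2547 were higher and 1209 lower with an unadjusted p under 0.05, and the lowest adjusted p was 0.206. Among 137 named genes with an unadjusted p under 0.05, those that changed sign were Bcl2a1c (-0.38) and Psmb9 (-0.0287), both with probe set medians. With probe set medians, 14 of 42 list medians moved by more than the replicate spread, with quantile normalization 13 of 42 and with dim genes left out 15, against 26 that did not and 1 list with no value.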

Other observations

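Imprinted genes, a list of 51 chosen after their values were seen, were lower beyond H19 and Meg3: 17 were lower and 2 higher with an unadjusted p under 0.05, with a median of -0.53, against 0.10 over all genes. Mest had log2 values of 6.66 and 6.83 in c-KIT+ cells, against 9.23 and 9.46 in CDH5+ cells and 8.21 and 7.60 in untreated MEFs. Igf2r, the receptor that clears IGF2, had 6.78 and 6.77 in c-KIT+ cells, against 9.42 and 8.86 in CDH5+ cells and 9.77 and 9.44 in untreated MEFs. The median was -0.57 against CDH5+ replicate 1 alone and -0.31 against replicate 2 alone. Slc22a3, an organic cation transporter gene beside Igf2r, was the opposite, with a difference of 1.42.

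Histone cluster genes, also listed after their values were seen, had a median of 0.90, with 11 of 42 higher and 0 lower with an unadjusted p under 0.05. Hist1h2ab had 7.59 and 7.26 in c-KIT+ cells, against 5.19 and 4.63 in CDH5+ cells and 2.76 and 6.61 in untreated MEFs, so the untreated pair spanned the CDH5+ values. Their near-identical sequences limit what a single row shows.

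The high Tcrg-C4 value did not extend to T cell receptor rows as a list. Of 85 such rows, 6 were higher and 8 lower, against 11.2% and 4.79% over all genes. The median was 0.002 (-0.03 after quantile normalization). Of the 85, 64 had c-KIT+ means within background, against 15450 of 26323 over all genes. Among 10 granzyme genes, 2 were higher and 0 lower (Gzmb and Gzmc). Gzmd had 7.06 and 8.04 in c-KIT+ cells and 8.54 and 4.76 in CDH5+ cells, and Gzme 7.18 and 7.99 in c-KIT+ cells and 8.33 and 5.11 in CDH5+ cells, both with overlap.

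The Gimap GTPase genes, which lie together in the genome, split. Gimap6 had 4.83 and 5.15 in c-KIT+ cells and 7.27 and 8.12 in CDH5+ cells, and Gimap4 4.30 and 4.46 in c-KIT+ cells and 6.23 and 7.55 in CDH5+ cells. Gimap9 had 7.29 and 7.73 in c-KIT+ cells and 6.04 and 6.36 in CDH5+ cells. Gbp9, a guanylate-binding GTPase, had 5.93 and 5.99 in c-KIT+ cells, against 8.44 and 9.08 in CDH5+ cells and 5.47 and 5.66 in untreated MEFs, while Gbp7 was higher by 0.65. Slfn5, of the schlafen family, had 4.75 and 4.64 in c-KIT+ cells and 7.90 and 7.34 in CDH5+ cells, and Slfn9 was higher by 1.06.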
